A study of Mus musculus with 8 samples.

Results

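The 8 mouse genes Prg2, Prg3, Epx, Ear1, Ear2, Ear6, Ear10 and Il5ra, which belong to the eosinophil program, were followed across c-Kit-positive bone marrow cells of 4 genotypes. They were taken by symbol from the first of the deposited expression tables, which holds 23293 mouse genes, and all 8 were found. Of these, 7 had a mean of at least 1 FPKM (fragments scaled to transcript length and to all mapped fragments) over the 8 libraries and entered the tests with 10854 genes in all. Il5ra fell below that limit and is described by its values.

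Eosinophils are granulocytes that mature in the bone marrow under interleukin 5. Their granules hold cationic proteins, among them major basic protein (Prg2), its homologue (Prg3), eosinophil peroxidase (Epx) and the eosinophil-associated ribonucleases (the Ear genes). Il5ra encodes the chain that binds interleukin 5, and the beta chain encoded by Csf2rb passes the signal on. The lineage depends on GATA1, whose cofactor FOG-1 (Zfpm1) holds it back, and on C/EBP factors.

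The cells came from individual mice, 2 per group, 4 weeks after PIpC, an interferon inducer that switches on the Mx1-cre recombinase. Controls carried a floxed Smc3 allele (Smc3 fl/+) and no Mx1-cre. The Smc3 del/+ mice had Mx1-cre and a single floxed allele of Smc3, which encodes a subunit of the cohesin ring, and the Flt3-ITD mice had Mx1-cre and an activating internal tandem duplication of the Flt3 receptor. The fourth group, called combined here, had Mx1-cre, floxed Smc3 and Flt3-ITD, with the genotype given as Smc3 fl/del Flt3-ITD and the titles reading Smc3het. Mx1-cre responds to interferon and is not limited to 1 blood lineage. The sources used here give no ages.

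In each library 10490 to 10843 mouse genes reached 1 FPKM. Depth in reads is unknown, and an uncertain estimate from the steps of low values put it at 0.707 to 1.02 of control replicate 1, with combined replicate 2 lowest. That lowest estimate was also the weakest. Its ratio was shared by 6 of 216 low genes in combined replicate 2, against 27 to 77 genes in the other libraries compared with control replicate 1. Combined replicate 2 also had the most genes listed at 0 (11076, against 8878 to 9907 in the others). Xist, the RNA of the inactive X chromosome, was at 500 to 657 FPKM in control and combined libraries and at 0.140 to 0.936 in Smc3 del/+ and Flt3-ITD, so that sex cannot be told apart from genotype in any comparison between those pairs of groups. Combined against control is a comparison within the pattern with Xist, and the comparison averaged over both Flt3 backgrounds is balanced for it. Only the controls lacked Mx1-cre, so no comparison that uses them, the averaged ones and the interaction included, is balanced for Mx1-cre. Smc3 itself was at 112 and 119 FPKM in the control libraries, 133 and 135 in libraries labelled Smc3 del/+, 89.9 and 94.7 under Flt3-ITD, and 103 and 136 in the combined libraries, so the labelled deletion was not visible as a lower level of the whole gene. Kit was at 37.4 to 60.1 FPKM in all 8 libraries.

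The Ear genes are close paralogs on chromosome 14, and their values must be read with that in mind. In the coding sequences of GENCODE release M21 (build GRCm38), Ear2 and Ear10 were identical at 97.0% of aligned bases, Ear1 and Ear2 at 95.1%, and Ear1 and Ear10 at 94.4%, while Ear6 was 87.3% to 87.6% identical to each of the others. The first 120 coding bases of each gene are shown because they let a reader see how few letters tell the 4 genes apart. Capitals mark bases unlike Ear1 at the same position, 4 in Ear2, 15 in Ear6 and 7 in Ear10.
Ear1: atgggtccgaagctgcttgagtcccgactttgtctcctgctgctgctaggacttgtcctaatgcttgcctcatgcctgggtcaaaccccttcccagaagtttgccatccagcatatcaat
Ear2: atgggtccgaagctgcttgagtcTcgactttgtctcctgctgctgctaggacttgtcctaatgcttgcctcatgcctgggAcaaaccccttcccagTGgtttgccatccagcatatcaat
Ear6: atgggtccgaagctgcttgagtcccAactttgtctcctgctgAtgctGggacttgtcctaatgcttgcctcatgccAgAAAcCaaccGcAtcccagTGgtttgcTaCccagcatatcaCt
Ear10: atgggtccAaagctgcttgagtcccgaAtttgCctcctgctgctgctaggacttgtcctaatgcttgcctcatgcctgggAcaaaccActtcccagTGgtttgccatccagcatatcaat

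Of all stretches of 50 bases in the annotated transcript, 37.6% in Ear2, 32.8% in Ear10 and 28.6% in Ear1 also occurred in another of these 4 transcripts, against 1.07% in Ear6. For stretches of 75 bases the shares were lower, 22% in Ear2, 25% in Ear10, 13.3% in Ear1 and 0% in Ear6. Reads from such stretches cannot be assigned by sequence. The sources used here do not say how such reads were shared out, so Ear1, Ear2 and Ear10 are uncertain one by one. Sharing was counted only among these 4 transcripts, so the low share in Ear6 does not cover other paralogs. Prg2 and Prg3, neighbours on chromosome 2, were 62.3% identical in coding sequence.

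Promoter windows, from 250 bases before to 50 after the start site, were found for 7 of the 8 genes in the RefSeq table (build GRCm38.p6). The letters GATAA, the core bound by GATA factors, were searched on both strands. They were present in 25.4% of all 32851 windows, and in those of Prg3, Il5ra and the 4 Ear genes. The 4 Ear windows were 79% to 97% identical to each other and held the letters at nearly the same place, 1 to 6 bases after the start site, so they are close to 1 observation. The Epx window did not hold them. Prg3 held a pair, at -123 and -111 from its start site on the opposite strand (TTATC as printed), and Il5ra 1 match, at -73. A C/EBP-type motif, TTGCNNAA, was in the windows of Ear1, Ear2 and Ear10 and in 10.8% of all windows. The ETS-type motif GAGGAA was in that of Il5ra and in 28.3% of all. The Prg3 and Il5ra stretches are shown with the GATA letters in capitals, Prg3 from chr2:84988065-84988184 on the plus strand and Il5ra from chr6:106749038-106749137 on the minus strand, both 5′ to 3′ along the gene. The deposited values were made on mm9 and carry no coordinates, and a match in letters is not evidence of binding.
Prg3: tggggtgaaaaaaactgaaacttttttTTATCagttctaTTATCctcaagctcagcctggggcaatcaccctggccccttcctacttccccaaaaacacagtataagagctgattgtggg
Il5ra: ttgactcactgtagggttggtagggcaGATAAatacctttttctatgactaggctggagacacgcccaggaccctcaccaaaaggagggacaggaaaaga

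Prg2, the major basic protein, was lowest in controls and highest in the combined group. It was at 25.3 and 27.3 FPKM in the control libraries, 48.0 and 39.3 under Flt3-ITD, 54.6 and 75.5 under Smc3 del/+, and 228 and 143 in the combined libraries. No 2 neighbouring groups overlapped. Its homologue Prg3 was far lower, at 1.12 and 2.34 FPKM in the control libraries, 4.58 and 4.80 under Smc3 del/+, 6.53 and 2.47 under Flt3-ITD, and 15.1 and 5.49 in the combined libraries. Flt3-ITD and Smc3 del/+ overlapped for Prg3, and the other neighbours in the order of means did not.

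Epx, the peroxidase, was lowest in Flt3-ITD, unlike the other 6 tested members. It was at 3.34 and 2.56 FPKM in the control libraries, 5.06 and 6.59 under Smc3 del/+, 2.35 and 1.54 under Flt3-ITD, and 32.9 and 6.60 in the combined libraries. The groups did not overlap, although combined replicate 2 and Smc3 del/+ replicate 2 were nearly level. The ratio of Prg2 to Epx was 7.57 and 10.7 in the control libraries, 10.8 and 11.5 under Smc3 del/+, 20.5 and 25.5 under Flt3-ITD, and 6.93 and 21.7 in the combined libraries. The 2 genes thus stood in nearly the same proportion in Flt3-ITD and in combined replicate 2, and in another in combined replicate 1.

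**Figure D1:**
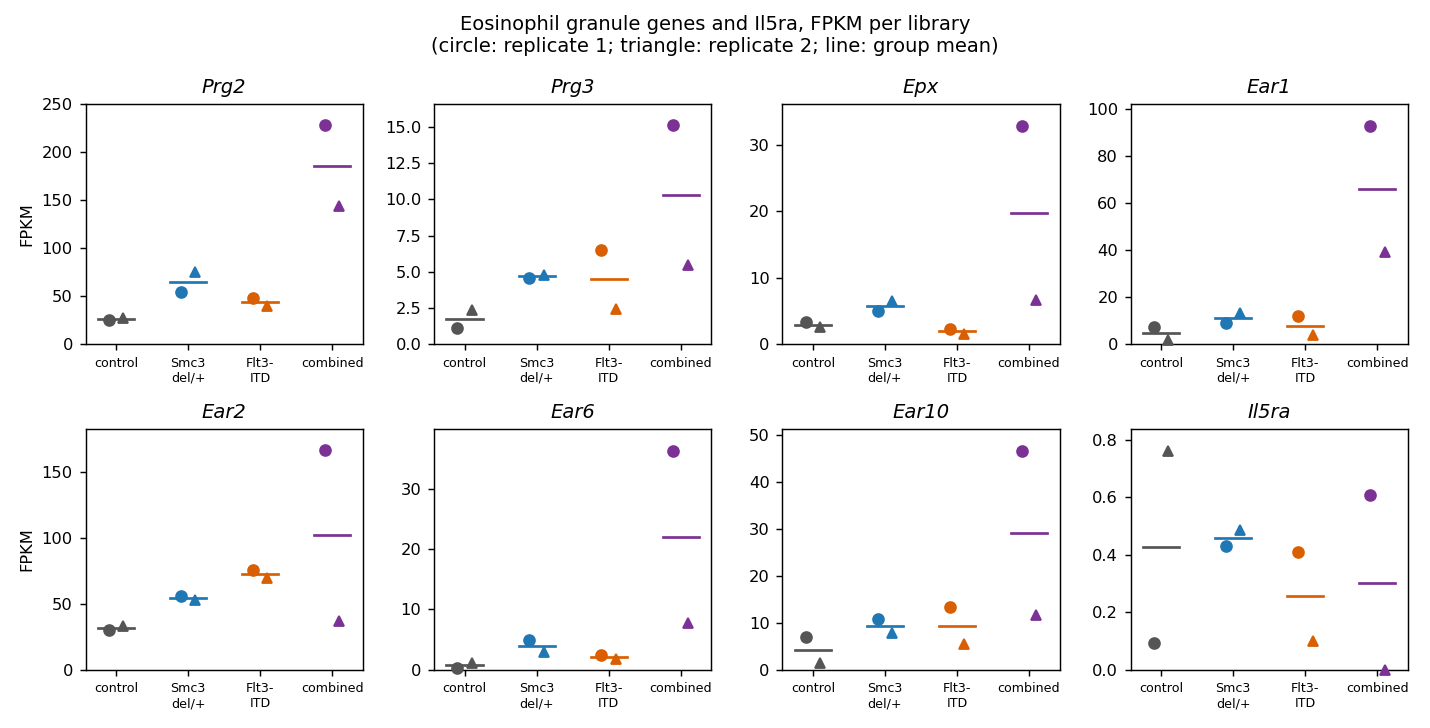
FPKM (vertical axis, from 0, scaled separately for each gene) of the 8 genes in the 4 groups, with a circle for replicate 1, a triangle for replicate 2 and a line at the group mean. Combined replicate 1 was highest for every gene except Il5ra, where control replicate 2 was highest at 0.760 FPKM.

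Ear2 was the most abundant of the ribonucleases in 7 of 8 libraries. It was at 30.4 and 33.1 FPKM in the control libraries, 56.4 and 52.7 under Smc3 del/+, 76.0 and 69.7 under Flt3-ITD, and 167 and 37.0 in the combined libraries. The first 3 groups were apart, with replicates close together, while the combined replicates lay above and below both Flt3-ITD libraries. Ear1 was at 7.48 and 2.03 FPKM in the control libraries, 9.17 and 13.2 under Smc3 del/+, 11.9 and 3.78 under Flt3-ITD, and 93.0 and 39.5 in the combined libraries. For Ear1 the combined group stood clear of all the others, which overlapped between Flt3-ITD and its neighbours on either side.

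Ear6 and Ear10 were also highest in combined replicate 1. Ear6 was at 0.315 and 1.16 FPKM in the control libraries, 4.86 and 2.97 under Smc3 del/+, 2.38 and 1.72 under Flt3-ITD, and 36.2 and 7.77 in the combined libraries, with no overlap between neighbouring groups. Ear10 was at 6.96 and 1.35 FPKM in the control libraries, 10.8 and 7.76 under Smc3 del/+, 13.4 and 5.40 under Flt3-ITD, and 46.6 and 11.7 in the combined libraries. For Ear10 the Flt3-ITD group overlapped with controls, with Smc3 del/+ and with the combined group. Ear7, a paralog outside the set, was at 1.07 FPKM in control replicate 1 and 1.15 in Smc3 del/+ replicate 2. In each of these groups Ear6 was lower in that library than in the other replicate. Ear7 was at 0.01 FPKM or less in the remaining libraries. Whether reads were shared between Ear6 and Ear7 was not tested.

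A further paralog outside the set, Ear3, bears on these values. It was at or under 0.0503 FPKM in 4 libraries, at 1.20 in Smc3 del/+ replicate 2 and 1.29 in combined replicate 1, but at 16.6 in Flt3-ITD replicate 2 and 32.1 in combined replicate 2. It made up 46.5% of Ear2 and Ear3 together in combined replicate 2 and 0.763% in combined replicate 1. Summed over Ear1, Ear2, Ear3, Ear6 and Ear10, the level was 45.2 and 37.7 FPKM in the control libraries, 81.3 and 77.8 under Smc3 del/+, 104 and 97.1 under Flt3-ITD, and 345 and 128 in the combined libraries. In these sums every group stood apart from the next, and that rests on Ear3. Without it the sums were 81.3 and 76.6 under Smc3 del/+, 104 and 80.6 under Flt3-ITD, and 343 and 95.9 in the combined libraries, so that Flt3-ITD overlapped with both.

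**Figure D2:**
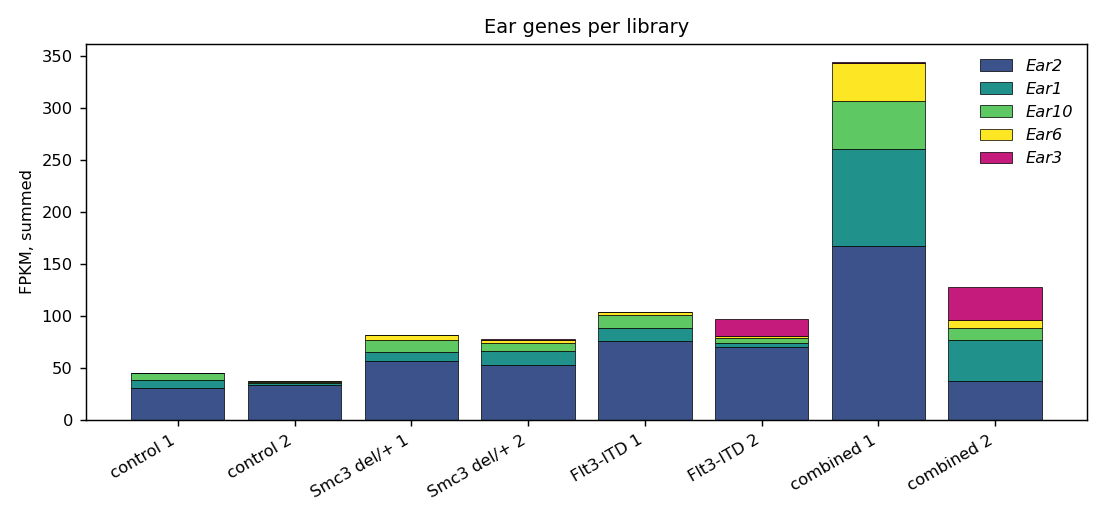
Summed FPKM (vertical axis, from 0) of Ear2, Ear1, Ear10, Ear6 and Ear3 in each of the 8 libraries, named by group and replicate, with 1 coloured segment per gene. The sum was 37.7 and 45.2 in controls and 128 and 345 in the combined libraries, and Ear3 formed a visible segment in Flt3-ITD replicate 2 and combined replicate 2.

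Il5ra transcripts were scarce in every group. Il5ra was at 0.0941 and 0.760 FPKM in the control libraries, 0.430 and 0.486 under Smc3 del/+, 0.410 and 0.101 under Flt3-ITD, and 0.606 in combined replicate 1. It was listed at 0 in combined replicate 2, the library of lowest and least certain estimated depth. Neighbours in the order of group means overlapped, while both Smc3 del/+ libraries lay above both Flt3-ITD libraries. With no filter on low values, Il5ra differed from control by 0.07 ± 0.339 (SE, log2 scale) under Smc3 del/+ and by -0.13 ± 0.339 in the combined libraries (limma adjusted p = 1 in both). The receptor gene was thus near the limit of detection in libraries in which Prg2 and Ear2 were never under 25.3 FPKM.

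The comparisons that follow share libraries and are not independent of each other. In Smc3 del/+ against control, the comparison that asks what the labelled Smc3 deletion does without the Flt3 mutation, the 7 tested genes had higher values in both libraries than in either control. Their log2 fold changes on the log2(FPKM + 1) scale ran from 0.76 for Ear2 to 1.52 for Ear6, with a median of 1.24 against 0.0012 over all genes tested. Ear1 and Ear10 leaned on which control was kept: they were at 1.98 and 2.12 without control replicate 1, and at 0.50 and 0.36 without control replicate 2. Prg2 had 1.26 ± 0.247 (SE). None of the 7 passed limma with Benjamini-Hochberg adjustment at 0.05, and Prg2 came nearest with an adjusted p of 0.508. In this comparison limma called 1 gene of 10854 (0.00921% in either direction, 0% higher), and an unadjusted p under 0.05 was seen in 4.55% of all genes and in 2 members, Prg2 and Ear6. Libraries did not overlap, with the higher values in Smc3 del/+, in 24.2% of all genes tested, against which the 7 of 7 is to be read. The 2 groups also differ in Xist and in Mx1-cre, whose part in the result cannot be told apart.

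In Flt3-ITD against control, which asks what the Flt3 mutation does without the labelled Smc3 deletion, the members went in more than 1 direction and none passed. Prg2 (log2 fold change 0.70 ± 0.247 SE, limma adjusted p = 0.089), Prg3 (0.94 ± 0.505), Ear2 (1.17 ± 0.565) and Ear6 (0.85 ± 0.618) had both libraries above both controls. Epx had both libraries below (-0.43 ± 0.598, adjusted p = 0.663), and Ear1 and Ear10 overlapped. The median over the 7 was 0.85, against -0.0068 over all genes. In the table the authors normalized (all-gene median -0.58), the values were smaller for Prg2 (0.18), Prg3 (0.35), Ear1 (0.084), Ear2 (0.65), Ear6 (0.32) and Ear10 (0.60) and further below 0 for Epx (-1.0). By limma 18% of all genes were called here in either direction (8.51% higher), and 34.3% had non-overlapping libraries with higher values in Flt3-ITD (35.2% with lower values). An unadjusted p under 0.05 was seen in 33.9% of all genes and in 1 member, Prg2. The Flt3-ITD and control groups also differ in Xist and in Mx1-cre, whose part in the result cannot be told apart. Calls for Prg2 and Ear2 appeared when either combined library was left out of the shared fit, with the same fold changes. Such a fit leaves 1 combined library, so these calls are not read as results about the members.

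**Figure D3:**
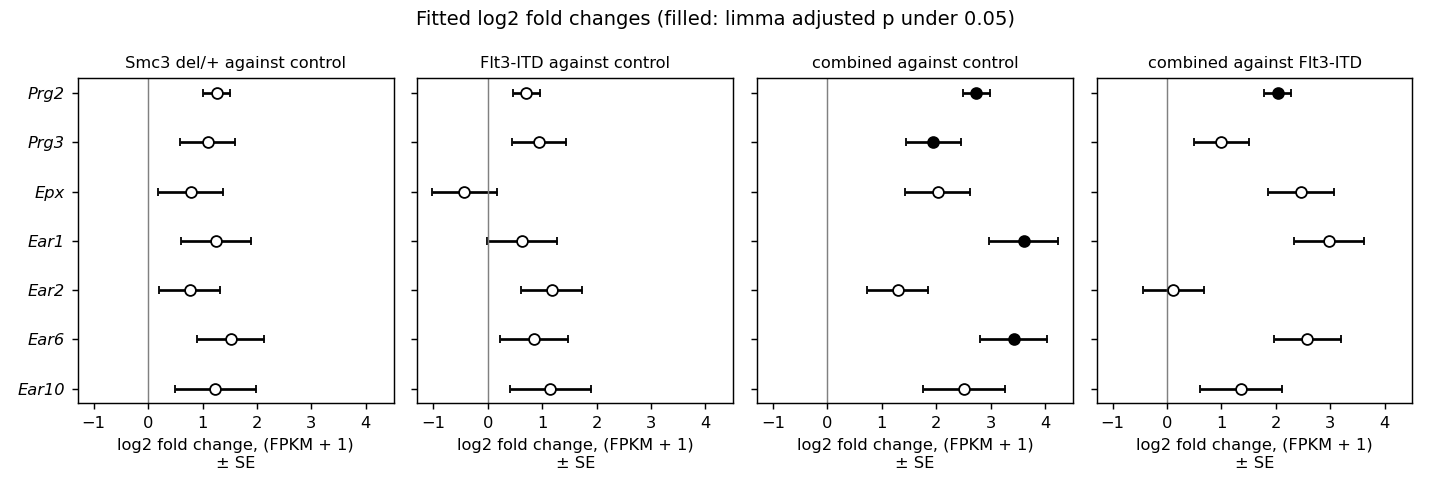
Log2 fold change on the log2(FPKM + 1) scale (horizontal axis, ± SE) of the 7 tested genes in 4 comparisons, filled where the limma adjusted p was under 0.05. Filled points are Prg2, Prg3, Ear1 and Ear6 in combined against control and Prg2 in combined against Flt3-ITD, and the Epx point in Flt3-ITD against control lies to the left of 0.

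The combined group against control gave the most calls: Prg2, Prg3, Ear1 and Ear6 rose, 4 of 7, where limma called 5.41% of all genes as higher (11.8% in either direction). Both groups have the Xist pattern, and they differ in Mx1-cre as well as in Smc3 and Flt3. The log2 fold change was 2.74 ± 0.247 (SE) for Prg2 (limma adjusted p = 0.00264), 3.60 ± 0.642 for Ear1 (0.0149), 3.42 ± 0.618 for Ear6 (0.0157) and 1.94 ± 0.505 for Prg3 (0.0478). Epx (2.03 ± 0.598, adjusted p = 0.0697), Ear10 (2.51 ± 0.753, 0.0731) and Ear2 (1.29 ± 0.565, 0.182) did not pass. All 7 had both libraries above both controls, as had 25.8% of all genes tested, and their median was 2.51 against -0.0055. An unadjusted p under 0.05 was seen in 6 members and in 28.6% of all genes. The 5 Ear genes summed into 1 value, a step added after the data were seen, rose by 2.32 ± 0.387 (adjusted p = 0.012). With the normalized values (all-gene median -0.673), Ear2 was at 0.59, Epx at 1.35 and Prg3 at 1.28, and Prg3 did not pass (limma adjusted p = 0.0562). Prg3 also did not pass when any 1 library other than combined replicate 2 was left out. Without combined replicate 2, Epx was at 3.11, Ear2 at 2.36 and Ear10 at 3.46. Such fits leave 1 library in a group, so calls gained there are not read as results about the members. Without control replicates 1 and 2 in turn only Prg2 passed.

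For combined against Flt3-ITD, which asks what the labelled Smc3 deletion adds to the Flt3 mutation, Prg2 rose and was the only member to pass. Its log2 fold change was 2.03 ± 0.247 (SE, limma adjusted p = 0.0337), in a comparison where limma called 0.24% of all genes as higher and 0.286% in either direction. Ear1 (2.97 ± 0.642, adjusted p = 0.172), Ear6 (2.58 ± 0.618, 0.218) and Epx (2.46 ± 0.598, 0.227) had larger fold changes and larger errors. These 4 had both libraries above both Flt3-ITD libraries, as had 17.1% of all genes, whereas Prg3 (1.0), Ear10 (1.36) and Ear2 (0.12) overlapped. The median was 2.03, against 0.00077 over all genes. An unadjusted p under 0.05 was seen in 4 members and in 11% of all genes. The combined and Flt3-ITD groups also differ in Xist, so that sex and the labelled deletion cannot be told apart here. The Prg2 call was lost without any one of the control, Smc3 del/+ or Flt3-ITD libraries (adjusted p = 0.0855 to 0.257, log2 fold change 1.89 to 2.17). It was also lost with a pseudocount of 0.1 (limma adjusted p = 0.0505), with the replicate block (0.0637), with no filter (0.223) and with only the compared groups fitted (0.334).

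The fold changes of the other members here turned on which combined library was kept. Such a fit takes the lone library to vary like the other groups, so calls gained there are not read as results about the members. Without combined replicate 1, the log2 fold change was 1.38 for Epx, 2.37 for Ear1, 1.53 for Ear6 and -0.96 for Ear2. Without combined replicate 2, Ear2 was at 1.19. These replicates differed by an SD of 0.701 on the log2 scale over all tested genes, against 0.350 to 0.409 within the other groups, and by 0.67 for Prg2, 1.22 for Ear1, 1.31 for Prg3, 1.90 for Ear10, 2.09 for Ear6, 2.15 for Ear2 and 2.16 for Epx, each time with replicate 1 higher. They also differed in 2 neutrophil protease genes: Mmp8 was at 702 and 137 FPKM and Mmp9 at 284 and 48.2 in combined replicates 1 and 2, against 563 to 592 and 211 to 250 in Flt3-ITD. This was not so for the neutrophil list as a whole, of which 7 of 14 genes were higher in combined replicate 1 and 7 in replicate 2 (Camp 5036 and 8252 FPKM in replicates 1 and 2). The part of this difference in the results was not tested.

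Averaged over both Flt3 backgrounds, the fitted effect of the labelled Smc3 deletion was positive in all 7 tested genes, of which 4 (Prg3, Ear1, Ear2 and Ear10) had overlapping libraries and none passed. The median log2 fold change was 1.62 against 0.0059 over all genes. Prg2 was at 54.6 to 228 FPKM in the 4 libraries with the deletion and at 25.3 to 48.0 in the 4 without. Its log2 fold change was 1.65 ± 0.212 (SE), the third smallest p of 10854 genes, and its limma adjusted p was 0.132. Ear6 (2.05 ± 0.45, adjusted p = 0.709) and Epx (1.62 ± 0.49, 0.901) also had all 4 libraries above the other 4. Such separation on the higher side was seen in 3 of 7 members and in 0.912% of all genes. Limma called none of the 10854 genes here (0%), while 4.84% had an unadjusted p under 0.05, among them 6 members. Ear2 was the exception, with 0.44 ± 0.391. All libraries with the deletion had Mx1-cre and the controls did not, so the part of Mx1-cre in this average cannot be told apart.

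Averaged over both Smc3 states, Flt3-ITD libraries were higher in Prg2 by 1.09 ± 0.212 on the log2 scale (limma adjusted p = 0.00899), although the 4 libraries with and the 4 without overlapped, as in all 7 members. In this comparison 10.9% of all genes were called as higher and 23.8% in either direction, 12.1% had non-overlapping libraries with higher values in Flt3-ITD, and an unadjusted p under 0.05 was seen in 5 members and in 38% of all genes. Ear6 (1.38, adjusted p = 0.0569), Ear1 (1.497, 0.0679) and Prg3 (0.89, 0.0878) did not pass, and Epx had the smallest value (0.41, 0.584). Prg2 was at 0.66 in the normalized table (limma adjusted p = 0.044) and did not pass with no filter (0.0636). Which members passed changed with the library left out. Such fits leave 1 library in a group, so calls gained there are not read as results about the members. The test of whether the Smc3 deletion acted differently in the 2 Flt3 backgrounds called no member (Epx 1.68 ± 0.846, adjusted p = 0.598, Ear1 1.73 ± 0.908, 0.611, Prg2 0.78 ± 0.35, 0.554), where limma called 0.0369% of all genes (0.0184% higher). An unadjusted p under 0.05 was seen in none of the 7 members and in 9.3% of all genes. Without combined replicate 1, the interaction value of Ear2 was -1.72, and without combined replicate 2, that of Epx was 2.75. In this last test the groups with and without Xist fall on opposite sides, so that sex and the interaction cannot be told apart. The controls alone lacked Mx1-cre, which is thus unbalanced in the averaged Flt3-ITD effect and in the interaction.

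Transcription factors of the lineage were called in both directions. Gata1 was at 30.1 and 32.1 FPKM in the control libraries, 26.6 and 25.5 under Smc3 del/+, 3.16 and 0.534 under Flt3-ITD, and 3.60 and 5.83 in the combined libraries. Zfpm1 was at 34.5 and 38.5 FPKM in the control libraries, 23.8 and 23.1 under Smc3 del/+, 3.54 and 3.47 under Flt3-ITD, and 4.97 and 6.09 in the combined libraries. Both had 4 low libraries, those with Flt3-ITD, and these include the combined libraries in which Prg2 was highest. Gata1 and Zfpm1 also serve red cell precursors, and 12 erythroid genes summed to 1958 to 2048 FPKM in controls, 1760 to 1908 under Smc3 del/+, 83.8 to 186 under Flt3-ITD and 210 to 608 in the combined libraries; the part of these cells in the factors' levels was not tested. Against control, Gata1 fell by 3.67 in Flt3-ITD and by 2.52 in the combined group on the log2 scale (limma adjusted p = 0.00269 and 0.0125), and Zfpm1 by 3.06 and 2.52. Cebpe, the C/EBP factor of late granulocytes, rose in Flt3-ITD (log2 fold change 1.02, limma adjusted p = 0.0246) and stood at 57.1 and 33.6 FPKM in the combined group. Of 13 tested factors, 6 rose and 3 fell in Flt3-ITD, and 3 rose and 3 fell in the combined group against control. Of all genes, limma called 18% and 11.8% in either direction in these comparisons. None of the factors passed in Smc3 del/+ against control or in combined against Flt3-ITD. Against control their median log2 fold change was 0.66 (Flt3-ITD) and 0.32 (combined), beside -0.0068 and -0.0055 over all genes. Irf8, a factor of monocytes and dendritic cells, rose by 1.35 in Flt3-ITD and by 1.78 in the combined group against control (adjusted p = 0.0161 and 0.00901). The 13 leave out Spi1, a listed factor that stands under its older symbol Sfpi1. Sfpi1 rose by 0.89 in Flt3-ITD against control (limma adjusted p = 0.0485). It did not pass in the combined group against control (0.46, adjusted p = 0.286).

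The beta chain gene of the interleukin 5 receptor was abundant where Il5ra was scarce. Csf2rb, the shared beta chain, was at 29.4 and 35.4 FPKM in the control libraries, 32.9 and 30.02 under Smc3 del/+, 72.6 and 52.4 under Flt3-ITD, and 64.7 and 33.1 in the combined libraries. Csf2rb2, a mouse duplicate of Csf2rb, was at 3.51 to 15.8 FPKM over all libraries. Csf2ra, the binding chain of the receptor for GM-CSF, rose by 1.17 in Flt3-ITD and by 1.09 in the combined group against control (limma adjusted p = 0.00682 and 0.0121), and Lyn, a kinase that acts at the beta chain, by 0.92 and 1.001 (adjusted p = 0.0057 and 0.00705). Stat5a fell by 0.73 and 0.95. Of 10 tested genes of this list, 2 rose and 1 fell in each of those comparisons (medians 0.37 and 0.29). Of all genes, limma called 18% and 11.8% there in either direction, so these counts are not read as a result about the list. None passed in Smc3 del/+ against control or in combined against Flt3-ITD. The cytokine genes Il5, Il3 and Csf2 were at 0.240 FPKM or less throughout.

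Surface genes of mature eosinophils also went other ways. Ccr3, the eotaxin receptor, was at 0.983 and 1.43 FPKM in the control libraries, 1.497 and 1.78 under Smc3 del/+, 0.128 in Flt3-ITD replicate 2 and 0.291 in combined replicate 1, and was listed at 0 in the other Flt3-ITD and combined libraries. Il1rl1, the interleukin 33 receptor, was at 12.5 to 13.3 FPKM in controls and Smc3 del/+ and at 0.380 to 4.49 in Flt3-ITD and combined libraries (log2 fold change -2.81, limma adjusted p = 0.00288, for Flt3-ITD against control, and -1.52, 0.028, for combined against control). Siglec5, the table's symbol for the eosinophil lectin Siglec-F, was at 7.73 and 5.70 FPKM in the control libraries, 7.65 and 8.63 under Smc3 del/+, 11.7 and 20.3 under Flt3-ITD, and 9.73 and 9.30 in the combined libraries. It rose in Flt3-ITD (1.11, adjusted p = 0.028). Of the 15 genes of this list in the table, 7 were tested. In Flt3-ITD against control, 4 rose (Siglec5, Alox5, Emr1 and Cd9) and 2 fell (Il1rl1 and Itga4), with a median of 0.95. In the combined group against control 1 fell (Il1rl1), with a median of 0.24. Of all genes, limma called 18% and 11.8% in either direction in these comparisons. None passed for Smc3 del/+ against control or for combined against Flt3-ITD. Alox15, a lipoxygenase of eosinophils that was too low to be tested and was picked after its values were seen, was at 2.41 FPKM in combined replicate 1 and at 0.761 or less elsewhere. The granule genes were thus read in libraries in which the eosinophil receptor genes Il5ra and Ccr3 were under 2 FPKM. Siglec5, another eosinophil surface gene, was at 5.70 to 20.3 FPKM in them.

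**Figure D4:**
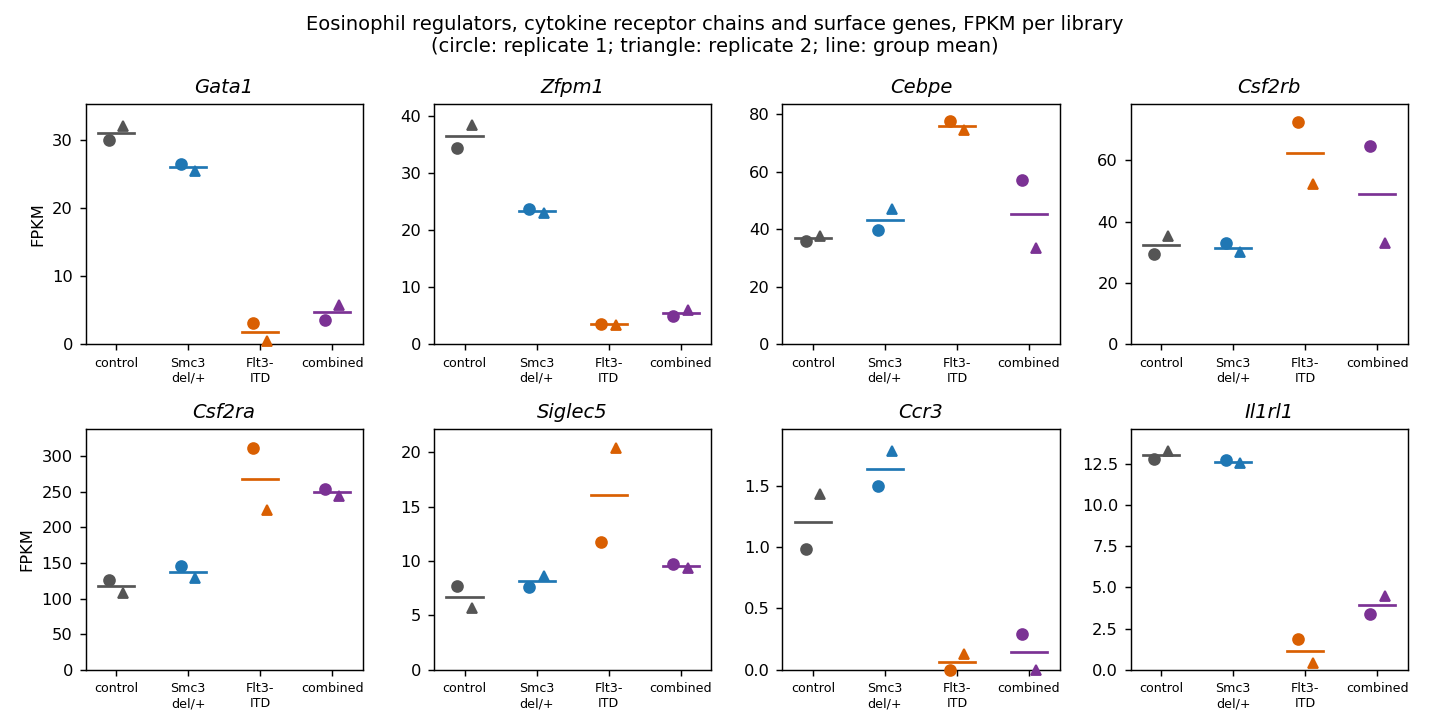
FPKM (vertical axis, from 0, scaled separately for each gene) of Gata1, Zfpm1, Cebpe, Csf2rb, Csf2ra, Siglec5, Ccr3 and Il1rl1 in the 4 groups, with a circle for replicate 1, a triangle for replicate 2 and a line at the group mean. Gata1, Zfpm1, Ccr3 and Il1rl1 were low in both groups with Flt3-ITD. Cebpe, Csf2rb, Csf2ra and Siglec5 had higher means in Flt3-ITD than in controls. The tested granule genes had their highest means in the combined group, which for Ear2 rested on replicate 1, and Epx was lowest in Flt3-ITD.

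Markers of neighbouring granulocytes were set beside these results. In whole selected cells, fewer cells of a type and less RNA per cell cannot be told apart. The 16 mast cell and basophil genes summed to 149 to 165 FPKM in the control libraries, 213 to 217 under Smc3 del/+, 158 to 166 under Flt3-ITD and 182 to 186 in the combined libraries. These sums hide changes in both directions. In Flt3-ITD against control, 2 of the 8 tested genes rose (Hdc and Il6ra) and 2 fell (Cpa3 and Prss34), with a median of -0.577. Of all genes, limma called 18% there in either direction. The tissue mast cell proteases Cma1, Mcpt1, Mcpt2, Mcpt4, Tpsab1 and Tpsb2 were at 0 in all 8 libraries. All 8 tested mast cell and basophil genes were on the higher side in the average over both Flt3 backgrounds, with none past the threshold. Their median was 0.40 against 0.0059 over all genes. This was not particular to that list, as 10 of 11 tested erythroid genes were also on the higher side (median 0.523). Cpa3, a carboxypeptidase of mast cells, was at 32.2 and 32.3 FPKM in the control libraries, 56.6 and 57.6 under Smc3 del/+, 13.3 and 16.3 under Flt3-ITD, and 11.6 and 24.5 in the combined libraries. The sums of the 14 neutrophil granule genes were 84360 to 91550 FPKM in the control libraries, 110600 to 114100 under Smc3 del/+, 167500 to 235400 under Flt3-ITD and 148100 to 178600 in the combined libraries. The 8 members summed to 70.6 to 75.02, 146 to 164, 124 to 161 and 252 to 620 FPKM in the same order, so that the combined group was highest for the members and not for the mast cell or neutrophil list. Monocyte and macrophage genes (17 in the table) summed to 1768 to 1818, 1574 to 1779, 3325 to 3577 and 2419 to 2885 FPKM. The part of these lists in the members' values was not tested.

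Among ribonuclease genes outside the set, Rnase6 rose in the combined group. It was at 5.87 and 6.61 FPKM in the control libraries, 5.68 and 6.77 under Smc3 del/+, 7.85 and 4.82 under Flt3-ITD, and 27.3 and 20.6 in the combined libraries (log2 fold change 1.79 ± 0.245 SE against Flt3-ITD, limma adjusted p = 0.0429, and 1.78 ± 0.245 against control, 0.00733). Both combined libraries stood above the other 6. Of the 12 other Ear and ribonuclease genes in the table, 4 were at 0 in all libraries (Ear4, Ear14, Rnase1 and Ang2) and 3 were tested.

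As a description, the genes most like the mean of the 7 tested members over the 8 libraries were Slc17a5, Slc35a3, Crebrf, Cask and Aff2, with a likeness (Pearson coefficient of log2 values) of 0.929 to 0.944. Slc17a5, a lysosomal sialic acid transporter, went from 4.03 to 4.39 FPKM in controls to 9.31 and 5.05 in the combined libraries. For Prg2 alone the 3 closest were Zfp747, H2-Oa and Nagpa (0.953 to 0.970), and H2-Oa, which modulates peptide loading of MHC class II, was at 0.383 and 1.03 FPKM in controls and 9.62 and 7.58 in the combined libraries. Those closest to Il5ra (Timm17b, Csnk2b, Kdm1b, Gmcl1 and 2610507B11Rik, 0.901 to 0.953) rest on Il5ra values under 1 FPKM. Within the set, the coefficients between Prg2 and the other tested members ran from 0.619 for Ear2 to 0.946 for Ear6, and that between Prg2 and Il5ra was 0.03. All points share the library effects of combined replicate 1, in which 7 of the 8 members were highest.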

How the data were processed

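The authors deposited FPKM values in 2 tables of 23385 rows (23293 mouse genes and 92 ERCC spike-ins) for the same 8 libraries. Per the submitters' processing notes, TopHat, Cufflinks 2.0.0 and mm9 were used; the sources used here name no annotation, strand setting or read number. Per the labels' protocols, libraries came from Trizol RNA with a directional kit. The first table gave the main values; the second, normalized further by the authors in a way not stated, was an alternative.

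The limma package 3.58.1 (R 4.3.3) was fitted to log2(FPKM + 1) with a variance trend, for the 10854 genes averaging 1 FPKM or more, and p was adjusted by Benjamini-Hochberg (threshold 0.05), from 4 group means or, for averaged effects, an additive model. The code was tested on simulated data, with shifts placed only in genes of a higher mean log2 level than Prg3, Epx, Ear6 and Ear10. That test therefore does not speak for these 4 members. With 2 libraries a group, calls rest on the spread shared across all groups. The members and lists were chosen with earlier results of these data known; all 8 members, and up to 4 genes of smallest p per list, were to be named. Column labels matched sample descriptions. Sequences were compared with Biopython 1.88. Estimated depth used the commonest ratio to control replicate 1 among values below 0.3 FPKM.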

Additional observations from a re-analysis of the deposited data

How the results depend on the processing

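Limits: 2 mice a group, unknown read depth, and paralogs whose reads are shared. In the table the authors normalized, the median of all genes was shifted against control by -0.379 (Smc3 del/+), -0.58 (Flt3-ITD) and -0.673 (combined), and by -0.102 for combined against Flt3-ITD. The number of member genes called stayed at 0 under every alternative run in 2 comparisons by limma, Smc3 del/+ against control and the averaged Smc3 effect. Elsewhere it changed as follows. For Flt3-ITD against control (0), it was 2 with only the compared groups fitted and 0 to 2 with single libraries left out. For combined against Flt3-ITD (1), it was 0 with a pseudocount of 0.1, with no filter, with only the compared groups and with the replicate number as a block, and 0 to 5 with single libraries left out. For combined against control (4), it was 1 with no filter and 1 with only the compared groups, and 1 to 7 with single libraries left out. For the averaged Flt3-ITD effect (1), it was 2 with a pseudocount of 0.1, 0 with no filter, 3 with the replicate block, 2 from the 4 group means and 2 with the Ear genes summed, and 1 to 5 with single libraries left out. For the interaction (0), leaving out single libraries gave 0 to 1. The cause was not tested. Fits with a library left out leave 1 library in a group, so their counts are not read as results about the members. With the replicate block the number of all genes called was 3 in combined against Flt3-ITD (31 without it), 1714 in Flt3-ITD against control (1955) and 1012 in combined against control (1279). Same-numbered libraries share only a number: their deviations correlated at -0.113 to 0.0229 across genes. From the normalized values, limma called 12 of all genes for Smc3 del/+ against control (1 from the first table), 4874 for Flt3-ITD against control (1955), 5981 for combined against control (1279) and 5053 for the averaged Flt3-ITD effect (2581). With only the compared groups fitted the counts were 22, 3603 and 41 for the first 3 of these, and 2 for combined against Flt3-ITD.

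Among values whose sign reversed, Ear2 in combined against Flt3-ITD was -0.063 in the normalized table and -0.96 to 1.19 with single libraries left out. Ear1 in Flt3-ITD against control was -0.11 to 1.37 with single libraries left out (-0.11 without control replicate 2, -0.086 without Flt3-ITD replicate 1). Epx in the averaged Flt3-ITD effect was -0.022 in the normalized table and -0.19 to 0.67 with single libraries left out. In the interaction, Prg3 was 0.23 in the normalized table and -0.75 to 0.56 with single libraries left out, Ear10 was -0.091 with a pseudocount of 0.1 and -0.83 to 1.07 with single libraries left out, and Ear2 was -1.72 to 0.43 with single libraries left out.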
